A study of Mus musculus with 12 samples.

Results

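The 9 genes described here across all 12 libraries are the interferon-induced genes Parp9, Parp10, Parp11, Parp12, Parp14, Dtx3l and Zbp1, and Parp1 and Parp2, relatives that interferon is not known to induce. They were chosen by gene symbol, each symbol matched 1 gene of the 55573 in the count table, and all 9 passed the filter on low counts that left 14197 genes for testing. RNA was sequenced from macrophages grown from mouse bone marrow, in 4 groups of 3 libraries each, namely BMI1-KO MM-MΦs and their wt counterpart wt MM-MΦs, and BMI1-KO MΦs with wt MΦs. MΦs were adherent marrow cells kept for 7 days in 5 ng/mL M-CSF, and MM-MΦs (myeloma-associated macrophages) had a further 48 h together with 5TGM1 mouse myeloma cells. RNA of all groups came from cells sorted as CD11b+ F4/80+. BMI1-KO mice were BMI1fl/fl Mx1-Cre and wt mice were BMI1fl/fl, all labelled C57BL/6. Mice of both genotypes received 5 intraperitoneal doses of poly I:C at 15 mg/kg at an age of 6 to 8 weeks, and marrow was taken 4 weeks after the last dose. Poly I:C is a double-stranded RNA mimic that triggers interferon, and the Mx1 promoter that drives Cre is itself interferon-inducible, so that genotype also means presence or absence of this transgene. Nothing in the labels says whether the 3 libraries of a group came from separate mice or cultures, so p-values measure the spread between these libraries, which may be technical.

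PARP proteins take ADP-ribose from NAD+ and attach it to other molecules. Parp1 and Parp2 act in the nucleus, where DNA strand breaks switch them on and they build long ADP-ribose chains. Parp10, Parp11, Parp12 and Parp14 attach single units, and several of them are interferon-induced and restrain viruses. Parp9 binds ADP-ribose through its macrodomains and works in a complex with Dtx3l, a ubiquitin ligase of the Deltex family. Zbp1 is not a PARP: it senses nucleic acids in the Z conformation and can start necroptosis through Ripk3. Type I interferon reaches these genes through the receptor Ifnar1 with Ifnar2, the kinases Jak1 and Tyk2, and a transcription factor complex that binds a short DNA element, the interferon-stimulated response element (ISRE).

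Library totals were 9662279 to 11142768 counts. Macrophage markers summed to 12342 to 17285 CPM in all libraries, and the labelled cell type was thus borne out by its markers. CPM are counts relative to library size. Those of single genes were scaled between libraries by TMM, and sums over marker lists were not. Markers of B, T, NK, dendritic and red blood cells were at or near 0. The 3 stromal markers summed to 5.87 to 29.8 CPM per library. Bmi1 had 281 to 364 counts in wt MM-MΦs and 251 to 321 in wt MΦs while its entries in the 6 BMI1-KO libraries were 0. In those 6, the library size implied by the deposited FPKM values was 512 to 734 counts above the sum of the table, and at most 1 count above it in wt libraries, so those zeros were not used as a check of the labels. Neutrophil granule transcripts differed between libraries: the 7 markers summed to 15.5 to 154 CPM in BMI1-KO MM-MΦs against 6.02 to 18.6 CPM in wt MM-MΦs, and to 8.74 to 79.0 CPM in BMI1-KO MΦs against 5.69 to 16.2 CPM in wt MΦs. Replicate 2 of BMI1-KO MM-MΦs was the highest, with 596 counts of Ngp.

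Parp14, Dtx3l and Parp9 lie together on mouse chromosome 16 (GRCm38). Parp14 (ENSMUSG00000034422) runs on the minus strand from 35832874 to 35871544, Dtx3l (ENSMUSG00000049502) on the minus strand from 35926511 to 35939151, and Parp9 (ENSMUSG00000022906) on the plus strand from 35938470 to 35972605. Dtx3l and Parp9 start head to head and overlap by 682 bases, 458 of them exonic in both, which is 8.0% of the exon bases of Dtx3l and 9.4% of those of Parp9. No source used here gives the strand setting of the counting, so reads from this overlap may have been credited to either gene or to neither. Parp12 (ENSMUSG00000038507, minus strand, 39086410 to 39118349) and Parp11 (ENSMUSG00000037997, plus strand, 127446840 to 127494261) both lie on chromosome 6. Parp10 (ENSMUSG00000063268) lies on chromosome 15 from 76231174 to 76243441 and shares 205 exon bases with Plec. Zbp1 (ENSMUSG00000027514) lies on chromosome 2 from 173206612 to 173218923. Parp1 (ENSMUSG00000026496) lies on chromosome 1 from 180568924 to 180601254 and Parp2 (ENSMUSG00000036023) on chromosome 14 from 50807841 to 50821301.

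**Figure D1:**
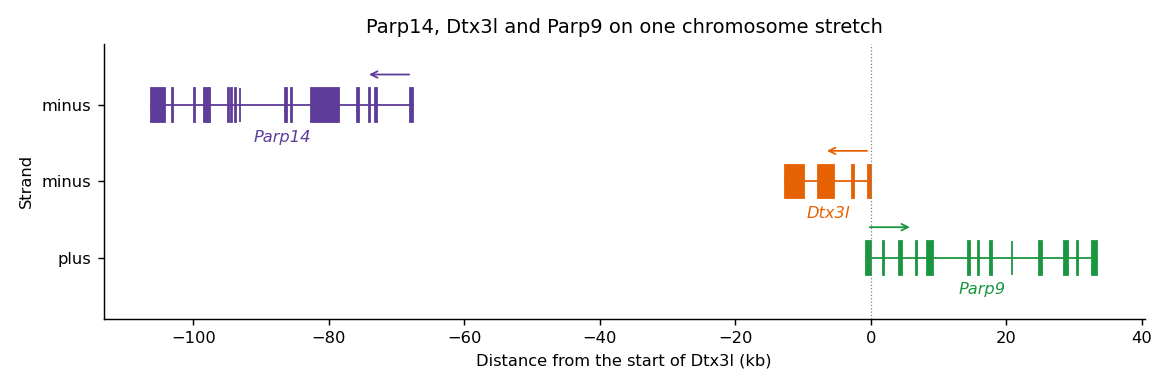
Exons (boxes) of Parp14, Dtx3l and Parp9, drawn by strand against the distance in kb from the start of Dtx3l, with arrows for the direction of transcription. Dtx3l and Parp9 overlap by 682 bases at their starts, and 54966 bases separate Dtx3l from Parp14.

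RefSeq promoter windows (GRCm38.p6, 250 bases before to 50 after an annotated start) were matched for 5 of the 9 genes, with 6 windows in all. The windows of Dtx3l, Parp12, Parp11 and Parp1 are shown because the first 3 genes belong to the interferon-induced set and Parp1 does not. They were searched on both strands for GAAANNGAA, the core of the ISRE, and capitals mark a match. The Dtx3l window (chr16:35938978-35939277, minus strand) also holds the starts of 4 of the 7 annotated Parp9 transcripts. The others are chr6:39118300-39118599 on the minus strand for Parp12, chr6:127446590-127446889 on the plus strand for the upstream start of Parp11, and chr1:180568641-180568940 on the plus strand for Parp1.
Dtx3l: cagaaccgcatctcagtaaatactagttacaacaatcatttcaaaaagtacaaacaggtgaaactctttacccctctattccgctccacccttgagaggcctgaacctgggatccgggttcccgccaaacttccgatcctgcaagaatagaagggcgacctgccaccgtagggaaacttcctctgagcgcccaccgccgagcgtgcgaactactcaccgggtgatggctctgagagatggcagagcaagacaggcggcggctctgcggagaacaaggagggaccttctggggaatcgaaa
Parp12: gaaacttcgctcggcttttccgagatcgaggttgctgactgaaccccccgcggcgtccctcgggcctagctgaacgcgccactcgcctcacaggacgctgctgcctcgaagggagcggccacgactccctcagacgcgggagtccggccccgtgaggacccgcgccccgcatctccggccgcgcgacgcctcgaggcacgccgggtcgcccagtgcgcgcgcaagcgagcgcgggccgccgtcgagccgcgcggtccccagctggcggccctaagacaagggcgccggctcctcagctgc
Parp11: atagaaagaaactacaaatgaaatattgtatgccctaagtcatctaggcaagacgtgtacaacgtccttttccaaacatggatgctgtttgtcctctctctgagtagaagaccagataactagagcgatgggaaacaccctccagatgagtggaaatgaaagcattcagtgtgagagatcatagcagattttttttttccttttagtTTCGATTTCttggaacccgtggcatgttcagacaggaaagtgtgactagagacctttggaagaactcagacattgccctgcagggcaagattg
Parp1: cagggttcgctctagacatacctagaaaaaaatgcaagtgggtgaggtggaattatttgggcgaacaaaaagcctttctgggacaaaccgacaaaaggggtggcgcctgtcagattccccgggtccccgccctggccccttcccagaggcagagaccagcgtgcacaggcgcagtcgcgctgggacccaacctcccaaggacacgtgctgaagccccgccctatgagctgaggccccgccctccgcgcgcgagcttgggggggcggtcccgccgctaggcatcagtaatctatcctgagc

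Among these letters the motif occurs once, on the opposite strand in the upstream Parp11 window, with its first base 43 bases before the start. The second Parp11 window and the windows of Dtx3l, Parp12, Parp1 and Parp2 hold no match, which says only that these letters are not in these 300 bases. Of all 32851 windows in the table, 8.56% hold the motif. For comparison, a list of 60 other interferon-stimulated genes had 59 windows, of which 28 hold it (47.5%). Counted by gene, 26 of the 48 listed genes with a window hold it in at least 1 window (54.2%).

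Levels were compared between genes with the deposited FPKM values, which divide counts by exon length and library size. In BMI1-KO MM-MΦs Parp14 (35.1 ± 6.07 FPKM) and Dtx3l (33.5 ± 2.24 FPKM) stood highest (mean ± SD, n = 3 in all groups). Parp12 (21.7 ± 3.48 FPKM), Parp1 (21.3 ± 3.54 FPKM) and Parp9 (16.8 ± 3.79 FPKM) followed. Below them came Zbp1 (11.1 ± 3.42 FPKM), Parp2 (8.17 ± 1.55 FPKM), Parp10 (7.84 ± 0.22 FPKM) and Parp11 (4.96 ± 0.75 FPKM). Neighbours that differed by less than the larger of their SDs were Parp14 and Dtx3l, Parp12 and Parp1, Zbp1 and Parp2, and Parp2 and Parp10. In wt MM-MΦs the order began with Parp14 (32.7 ± 2.81 FPKM), Dtx3l (26.8 ± 1.15 FPKM) and Parp1 (24.8 ± 8.38 FPKM), and the last was again Parp11 (3.71 ± 0.66 FPKM).

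The order was different in macrophages that had not met myeloma cells. In BMI1-KO MΦs Parp1 (21.2 ± 3.20 FPKM), Dtx3l (19.2 ± 0.40 FPKM) and Parp14 (17.6 ± 1.02 FPKM) were the 3 highest, and in wt MΦs they were Parp1 (24.7 ± 9.78 FPKM), Parp14 (17.4 ± 1.68 FPKM) and Dtx3l (16.5 ± 1.72 FPKM). Of these neighbours, Dtx3l and Parp14 in BMI1-KO MΦs were further apart than the larger of their SDs and the others were not. Zbp1 was last in both, at 2.67 ± 0.95 FPKM in BMI1-KO MΦs and 2.33 ± 0.14 FPKM in wt MΦs.

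**Figure D2:**
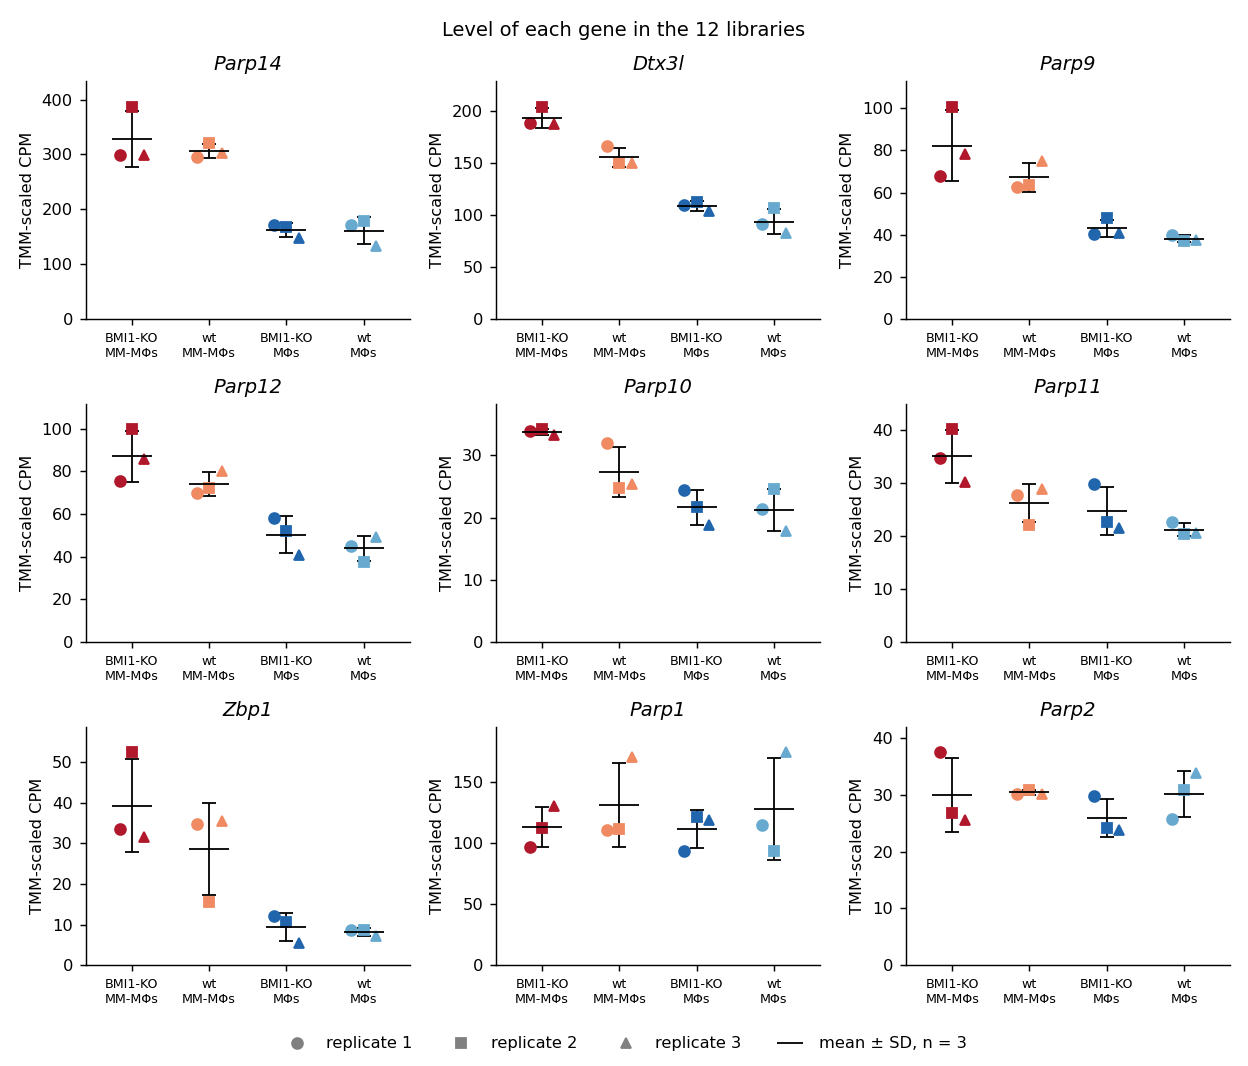
TMM-scaled CPM of the 9 genes in each library, with 1 panel per gene, a marker shape for each replicate number and black lines for the mean ± SD of 3 libraries. The interferon-induced genes have higher means in both MM-MΦ groups than in the MΦ groups, most of all Zbp1, while Parp1 and Parp2 show no such step.

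The first question was how co-culture with myeloma cells moved these genes in each genotype. In BMI1-KO cells Parp14, Dtx3l and Parp9, the neighbours on chromosome 16, rose with co-culture by 1.78- to 2.02-fold, and in wt cells Dtx3l rose 1.66-fold. All 7 interferon-induced genes had fold changes above 1 in both genotypes, with a median log2 fold change of 0.83 in BMI1-KO and 0.75 in wt cells, beside medians of −0.0072 in BMI1-KO and 0.0027 in wt cells over all genes tested. Parp1 and Parp2 had log2 fold changes of 0.01 to 0.21. In bulk libraries more cells of a type and more RNA per cell cannot be told apart.

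Dtx3l, the ubiquitin ligase, had 188, 204 and 187 CPM in BMI1-KO MM-MΦs against 110, 113 and 104 CPM in BMI1-KO MΦs (edgeR log2 fold change 0.83 with SE 0.11 and adjusted p = 0.0202). In wt cells it had 166, 150 and 150 CPM in MM-MΦs against 91.8, 106 and 82.5 CPM in MΦs (edgeR log2 fold change 0.73 with SE 0.11 and adjusted p = 0.048). The MM-MΦ libraries lay above all MΦ libraries in both genotypes.

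Parp14, which carries several macrodomains and is known in mice as a helper of Stat6 in interleukin-4 signalling, had 299, 387 and 299 CPM in BMI1-KO MM-MΦs against 172, 168 and 147 CPM in BMI1-KO MΦs (edgeR log2 fold change 1.02 with SE 0.15 and adjusted p = 0.0202). In wt cells it had 296, 320 and 303 CPM in MM-MΦs against 171, 179 and 134 CPM in MΦs, a log2 fold change of 0.93 (SE 0.15) that missed the threshold of 0.05 narrowly (edgeR adjusted p = 0.0505). Again no MM-MΦ library overlapped with the MΦ libraries of its genotype.

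Parp9, the partner of Dtx3l, had 67.8, 101 and 78.2 CPM in BMI1-KO MM-MΦs against 40.6, 47.8 and 40.9 CPM in BMI1-KO MΦs (edgeR log2 fold change 0.93 with SE 0.15 and adjusted p = 0.0465). In wt cells it had 62.8, 63.7 and 75.0 CPM in MM-MΦs against 40.1, 36.9 and 37.5 CPM in MΦs (edgeR log2 fold change 0.82 with SE 0.15 and adjusted p = 0.115). The groups did not overlap in either genotype.

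Zbp1 had the widest gap and the widest spread on the log2 scale of the 9 genes, on 60 to 524 counts per library. It had 33.6, 52.5 and 31.7 CPM in BMI1-KO MM-MΦs against 12.2, 10.6 and 5.44 CPM in BMI1-KO MΦs, a 4.18-fold difference (edgeR log2 fold change 2.06 with SE 0.37 and adjusted p = 0.0642). In wt cells it had 34.9, 15.6 and 35.5 CPM in MM-MΦs against 8.73, 8.77 and 7.07 CPM in MΦs, a 3.50-fold difference (edgeR log2 fold change 1.81 with SE 0.37 and adjusted p = 0.177). Replicate 2 of wt MM-MΦs, at less than the other libraries of its group, still lay above every wt MΦ library.

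Parp12, a zinc-finger PARP, had 75.7, 99.6 and 85.7 CPM in BMI1-KO MM-MΦs against 57.9, 52.1 and 41.1 CPM in BMI1-KO MΦs (edgeR log2 fold change 0.79 with SE 0.16 and adjusted p = 0.133). In wt cells it had 69.7, 72.4 and 80.2 CPM in MM-MΦs against 45.0, 37.6 and 49.4 CPM in MΦs (edgeR log2 fold change 0.75 with SE 0.16 and adjusted p = 0.257). Its groups did not overlap either.

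Parp10, first described in human cells as a partner of the MYC protein, had 33.2 to 34.1 CPM in BMI1-KO MM-MΦs against 18.8 to 24.4 CPM in BMI1-KO MΦs, and 24.7 to 31.9 CPM in wt MM-MΦs against 17.8 to 24.6 CPM in wt MΦs. Its log2 fold changes were 0.64 in BMI1-KO (SE 0.17, edgeR adjusted p = 0.418) and 0.36 in wt cells (SE 0.17, not past the threshold). The lowest wt MM-MΦ library stood only just above the highest wt MΦ library. Parp11 had 30.2 to 40.1 CPM in BMI1-KO MM-MΦs against 21.6 to 29.9 CPM in BMI1-KO MΦs (log2 fold change 0.51, SE 0.18), and 22.1 to 28.8 CPM in wt MM-MΦs against 20.5 to 22.6 CPM in wt MΦs (log2 fold change 0.31, SE 0.18). Its wt groups overlapped, and neither value passed the test.

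The DNA break enzymes gave the contrast. Parp1 had 96.8, 112 and 130 CPM in BMI1-KO MM-MΦs against 93.2, 121 and 119 CPM in BMI1-KO MΦs (log2 fold change 0.02, SE 0.24), and 110, 111 and 170 CPM in wt MM-MΦs against 115, 93.8 and 174 CPM in wt MΦs (log2 fold change 0.04, SE 0.24). Its highest wt library was replicate 3 with and without myeloma cells. Parp2 had 25.6 to 37.5 CPM in BMI1-KO MM-MΦs against 23.7 to 29.9 CPM in BMI1-KO MΦs (log2 fold change 0.21, SE 0.18) and 30.1 to 30.9 CPM in wt MM-MΦs against 25.8 to 33.8 CPM in wt MΦs (log2 fold change 0.01, SE 0.18). The groups of both genes overlapped in both genotypes.

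In all, edgeR called 3 of the 9 genes higher with co-culture in BMI1-KO cells, where 0.190% of all genes tested were called higher, and 1 of 9 in wt cells, where 0.0916% were. Every MM-MΦ library lay above every MΦ library for 7 of the 9 genes in BMI1-KO cells (3.71% of all genes) and for 6 of 9 in wt cells (3.04%). With the replicate number as a block within genotype, nearly the same log2 fold changes had smaller errors. No label says whether libraries of the same number, with and without myeloma cells, share a mouse, culture or batch. The block called 6 genes in BMI1-KO cells (Parp9, Parp10, Parp12, Parp14, Dtx3l and Zbp1, against 1.85% of all genes) and 5 in wt cells (Parp9, Parp12, Parp14, Dtx3l and Zbp1, against 1.06%). With the block, the edgeR adjusted p of Zbp1 was 4.63e-06 in BMI1-KO and 8.8e-05 in wt cells, and that of Parp11 was 0.0654 in BMI1-KO and 0.758 in wt cells. DESeq2 called Parp9, Parp12, Parp14, Dtx3l and Zbp1 in both genotypes, against 0.634% of all genes in BMI1-KO and 0.409% in wt cells.

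The calls without a block depended on single libraries. Leaving out any 1 of the 6 wt libraries ended the call of Dtx3l (edgeR adjusted p 0.0827 to 0.325), with log2 fold changes of 0.65 to 0.83. Over all genes tested, edgeR then called 0 to 3 in wt cells, against 13 with all libraries. In BMI1-KO cells the 3 calls held without replicate 1 of MM-MΦs (edgeR adjusted p 0.0353 to 0.0354). They ended without any of the other 5 libraries (edgeR adjusted p 0.0519 to 0.241). Over all genes tested, edgeR called 27 with all libraries, 24 without that replicate 1 and 4 to 8 without any of the others. Without replicate 2 of BMI1-KO MM-MΦs, the library with the most neutrophil transcripts, the log2 fold changes were 0.88 for Parp14, 0.79 for Dtx3l, 0.76 for Parp9 and 1.80 for Zbp1, with no call by edgeR (adjusted p 0.131 to 0.326).

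**Figure D3:**
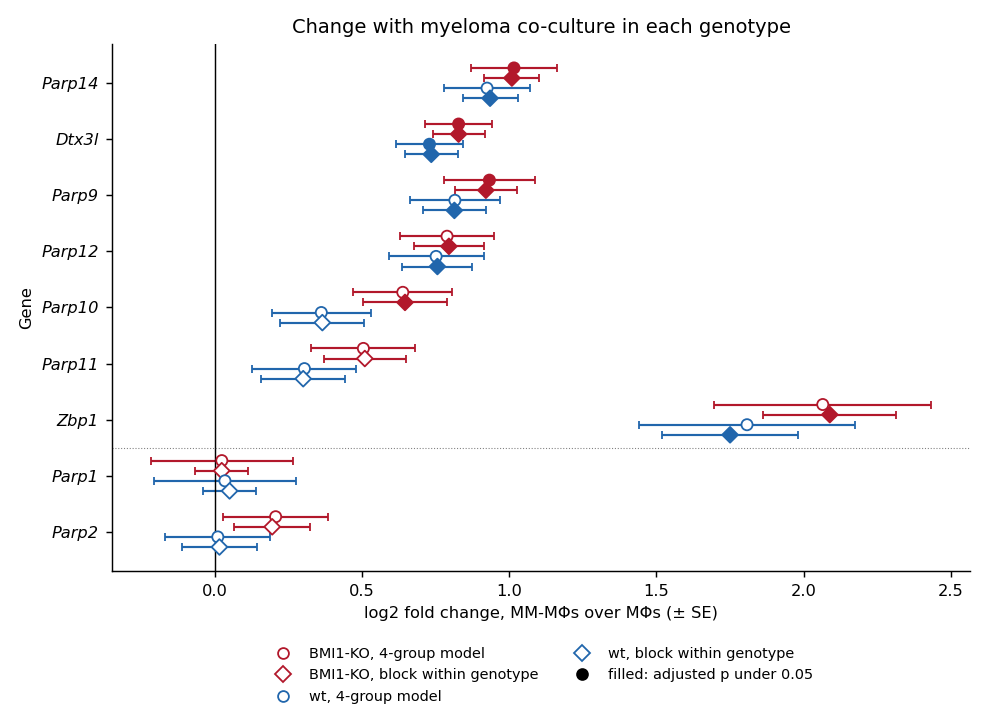
log2 fold change of MM-MΦs over MΦs (x axis, ± SE) for each gene in BMI1-KO (red) and wt cells (blue), from the 4-group model (circles) and with the replicate number as a block within genotype (diamonds); filled symbols have an adjusted p under 0.05. The 7 interferon-induced genes all lie right of 0, from 0.30 to 2.09, and Parp1 and Parp2 lie between 0.01 and 0.21.

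Immunoglobulin transcripts, which mark plasma and myeloma cells, had higher counts in the co-cultured libraries, although the cells had been sorted. Ighg2b had 385, 562 and 1180 counts in BMI1-KO MM-MΦs against 16, 0 and 9 counts in BMI1-KO MΦs, and 424, 1170 and 716 counts in wt MM-MΦs against 0, 113 and 19 counts in wt MΦs. Over the list of 10 plasma and myeloma cell markers, 7 were tested. In each genotype 6 had fold changes above 1, beside 48.7% of all genes in BMI1-KO and 50.7% in wt cells. edgeR called 1, Igkc, in BMI1-KO cells (0.190% of all genes called higher) and 0 in wt cells (0.0916%). With the replicate block within genotype it called Ighg2b, Igkc, Pou2af1 and Irf4 in BMI1-KO cells and the first 3 of these in wt cells. Under that block 1.85% of all genes were called higher in BMI1-KO and 1.06% in wt cells. Sdc1 had log2 fold changes of 0.16 in BMI1-KO and −0.0061 in wt cells, Prdm1 −0.13 in BMI1-KO and 0.19 in wt cells, and Xbp1 0.19 in BMI1-KO and 0.20 in wt cells, none of them called. The list summed to 403 to 515 CPM in BMI1-KO MM-MΦs against 286 to 317 CPM in BMI1-KO MΦs, and to 471 to 723 CPM in wt MM-MΦs against 287 to 490 CPM in wt MΦs. Mzb1 was at 0 in all libraries but 1, with 5 counts there, and Tnfrsf17 had 0 to 2 counts. Replicate 2 of wt MM-MΦs had the highest Ighg2b count of its group. Zbp1, Parp10 and Parp11 were lowest of the group there, Parp14 was highest, and Parp9, Parp12 and Dtx3l lay between. The part of myeloma RNA in the co-culture values was not tested.

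The second question was whether loss of BMI1 changed these genes. In MM-MΦs all 7 interferon-induced genes were measured higher in BMI1-KO than in wt cells, by 1.07- to 1.37-fold, and edgeR called 0 of the 9 genes in either direction (0.0493% of all genes were called higher). DESeq2 and limma-voom called 0 as well. In edgeR 2 of the 9 genes, Dtx3l and Parp11, had an unadjusted p under 0.05, as did 712 of all 14197 genes. The median log2 fold change over the 7 was 0.30, beside −0.014 over all genes.

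Dtx3l had 188, 204 and 187 CPM in BMI1-KO MM-MΦs against 166, 150 and 150 CPM in wt MM-MΦs (edgeR log2 fold change 0.32 with SE 0.11 and adjusted p = 0.752). Parp11 had 34.8, 40.1 and 30.2 CPM in BMI1-KO MM-MΦs against 27.8, 22.1 and 28.8 CPM in wt MM-MΦs (edgeR log2 fold change 0.42 with SE 0.18 and adjusted p = 0.958). For Parp10 the values were 33.9, 34.1 and 33.2 CPM in BMI1-KO against 31.9, 24.7 and 25.4 CPM in wt MM-MΦs (edgeR log2 fold change 0.30 with SE 0.17 and adjusted p = 0.999). These 3 of the 9 genes had every BMI1-KO library above every wt library, as did 4.40% of all genes.

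The other 4 induced genes overlapped between genotypes. Their log2 fold changes in MM-MΦs were 0.45 for Zbp1 (SE 0.35), 0.29 for Parp9 (SE 0.15), 0.23 for Parp12 (SE 0.16) and 0.10 for Parp14 (SE 0.14). Parp1 had −0.21 (SE 0.24) and Parp2 −0.02 (SE 0.18). Replicate 2 of BMI1-KO MM-MΦs was the highest library of all 12 for each of the 7 induced genes. Without it the log2 fold changes were 0.19 for Zbp1, 0.12 for Parp9, 0.12 for Parp12, −0.035 for Parp14, 0.28 for Dtx3l, 0.31 for Parp11 and 0.30 for Parp10, with a median of 0.19. Without replicate 2 of wt MM-MΦs the log2 fold change of Zbp1 was 0.16. Replicate 2 of BMI1-KO MM-MΦs also held the highest neutrophil marker sum, 154 CPM, and the part of those cells in the values was not tested. Of the 7 plasma and myeloma cell markers tested, 5 had values below 0 in MM-MΦs (median log2 fold change −0.29) and 6 in MΦs (median −1.87). edgeR called 0 of them in either culture. An unadjusted p under 0.05 was found for 1 in MM-MΦs (712 of all 14197 genes) and 3 in MΦs (819 of all 14197 genes). Sdc1, the marker CD138, had 188, 145 and 153 counts in BMI1-KO MM-MΦs against 607, 1298 and 362 in wt MM-MΦs, and 207, 77 and 157 counts in BMI1-KO MΦs against 827, 1169 and 284 in wt MΦs. The summed levels of the list given above overlapped between genotypes in both cultures, and their part in the genotype values was not tested.

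In MΦs without myeloma cells the median log2 fold change of BMI1-KO over wt cells for the 7 induced genes was 0.19, beside −0.010 over all genes, from 0.01 for Parp14 (SE 0.15) to 0.22 for Dtx3l (SE 0.11) and Parp11 (SE 0.18). edgeR, DESeq2 and limma-voom called 0 of the 9 genes, none had an unadjusted p under 0.05 in any of the 3, and edgeR called 0.0352% of all genes higher. Only Parp9 had every BMI1-KO library (40.6, 47.8 and 40.9 CPM) above every wt library (40.1, 36.9 and 37.5 CPM), by a narrow gap, which 5.17% of all genes showed. Parp1 had a log2 fold change of −0.20 (SE 0.24) and Parp2 of −0.22 (SE 0.18). Without replicate 1 of BMI1-KO MΦs the median over the 7 was 0.047, with 4 of the 7 above 0, and without replicate 2 of BMI1-KO MΦs it was 0.11.

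**Figure D4:**
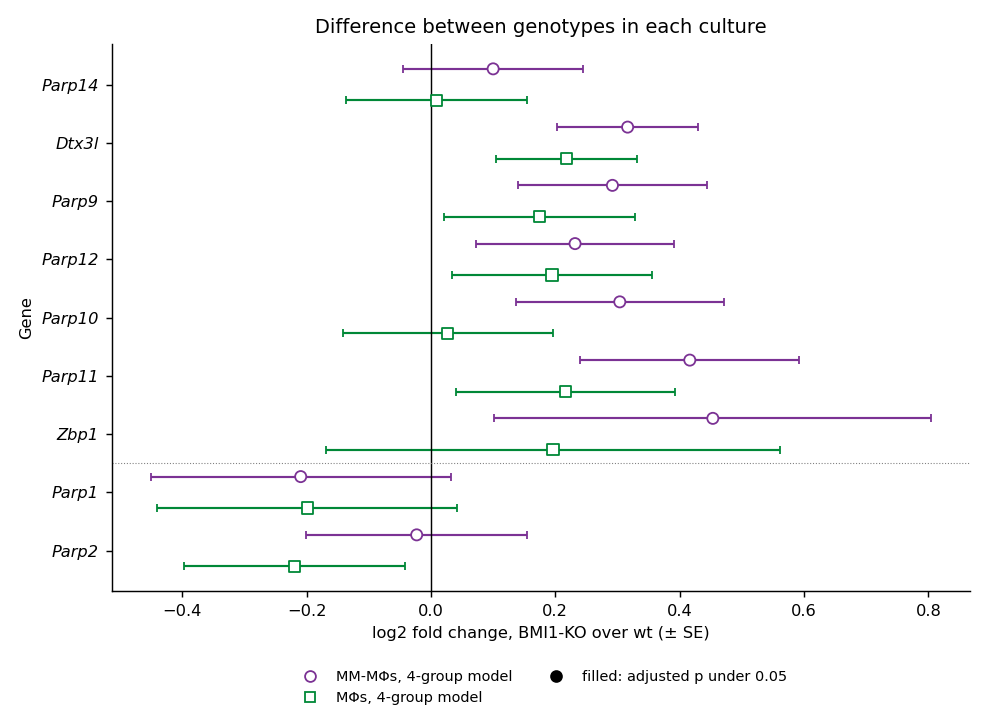
log2 fold change of BMI1-KO over wt cells (x axis, ± SE) for each gene in MM-MΦs (purple circles) and in MΦs (green squares); open symbols have an adjusted p of 0.05 or more. All symbols are open, the 7 interferon-induced genes lie between 0.01 and 0.45, and Parp1 and Parp2 lie between −0.22 and −0.02.

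The third question was whether co-culture acted differently in the 2 genotypes. The interaction, BMI1-KO co-culture change minus wt co-culture change, was 0.28 for Parp10 (SE 0.24), 0.26 for Zbp1 (SE 0.51), 0.20 for Parp11 (SE 0.25), 0.12 for Parp9 (SE 0.22), 0.10 for Dtx3l (SE 0.16), 0.09 for Parp14 (SE 0.21) and 0.04 for Parp12 (SE 0.23) on the log2 scale. It was −0.01 for Parp1 (SE 0.34) and 0.20 for Parp2 (SE 0.25). The median over the 7 induced genes was 0.12. Without replicate 2 of BMI1-KO MM-MΦs this median was −0.0079, with 3 of the 7 above 0. edgeR called 0 of the 9 genes and 0% of all genes, DESeq2 and limma-voom called 0 of the 9, and none had an unadjusted p under 0.05. With these errors a difference of the size of the Zbp1 interaction was not detectable.

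The 7 induced genes moved together from library to library. The Pearson r of each gene with the mean log2 CPM of the other 6 over 12 libraries was 0.97 for Zbp1, 0.96 for Dtx3l, 0.95 for Parp9, 0.94 for Parp14, 0.93 for Parp12, 0.90 for Parp10 and 0.84 for Parp11, and −0.06 for Parp1 and 0.18 for Parp2 with the mean of all 7. These r values are a description over libraries that share 4 groups, so the step between MΦs and MM-MΦs contributes to them. After group means were removed, r was 0.46 to 0.86 for the induced genes, −0.18 for Parp1 and −0.10 for Parp2.

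The 10 genes whose pattern over the 12 libraries was most like the mean of the 7 (Pearson r 0.97 to 0.98) were Ddx58, Mx1, Ifit3, Stat2, Adar, Trim30a, Ifit1, Cmpk2, Oas1g and Oas2. Ddx58 encodes the RNA sensor RIG-I, and Mx1 and the Ifit and Oas genes encode antiviral effectors. Ifit3 had log2 fold changes with co-culture of 3.41 in BMI1-KO (edgeR adjusted p = 0.0046) and 2.89 in wt cells (edgeR adjusted p = 0.0218). Those of Mx1 were 2.97 in BMI1-KO and 2.28 in wt cells, and those of Ddx58 were 1.15 in BMI1-KO and 0.90 in wt cells, all past the threshold. The values of the Parp genes were smaller than those of Ifit3 and Mx1. In BMI1-KO cells those of Parp9, Parp10, Parp11, Parp12 and Parp14 were all below that of Ddx58. In wt cells that of Parp14 was just above it (0.93), and those of Parp9, Parp10, Parp11 and Parp12 were below it.

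**Figure D5:**
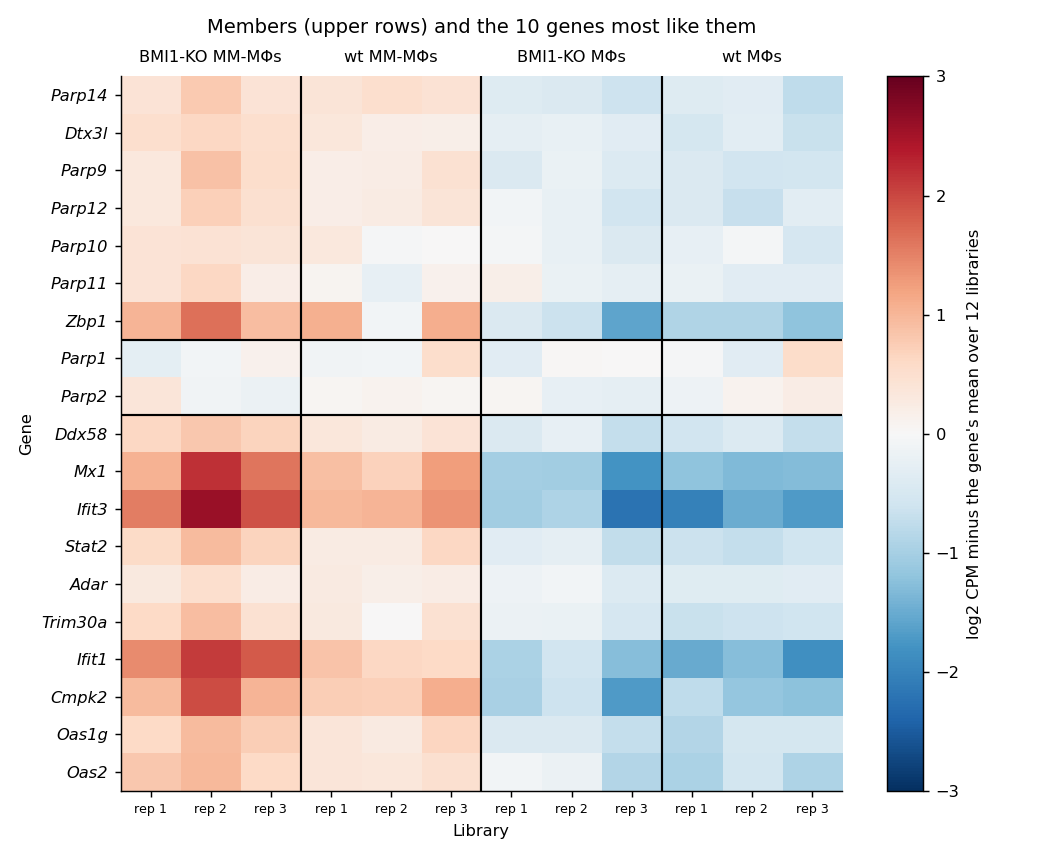
log2 CPM of each gene minus its mean over the 12 libraries (colour), for the 9 genes (upper rows, with Parp1 and Parp2 between the black lines) and the 10 genes most like the mean of the 7 induced genes (lower rows), with libraries grouped along the x axis. BMI1-KO MM-MΦ replicate 2 is darkest red in most induced rows, and the rows of Parp1 and Parp2 show no block of MM-MΦ columns.

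Other genes of the same pathways were read from lists. Of 58 tested genes on the list of other interferon-stimulated genes, edgeR called 20 higher with co-culture in BMI1-KO cells (0.190% of all genes) and 12 in wt cells (0.0916% of all genes), and none lower in either. With the replicate block within genotype it called 53 higher in BMI1-KO cells (1.85% of all genes) and 47 in wt cells (1.06% of all genes). The median log2 fold change of the list without the block was 1.03 in BMI1-KO and 0.90 in wt cells. Among the signal carriers, Stat2 rose in both genotypes (log2 fold change 1.17, edgeR adjusted p = 0.0202, in BMI1-KO and 1.03, edgeR adjusted p = 0.048, in wt cells). Irf7, which amplifies type I interferon production, had 2.03 in BMI1-KO (edgeR adjusted p = 0.0642) and 1.92 in wt cells (edgeR adjusted p = 0.115). Irf9 had 0.35 in BMI1-KO and 0.56 in wt cells, and Isg15, a ubiquitin-like protein, had 1.88 in BMI1-KO and 1.91 in wt cells on 6 to 65 counts, and none of these passed the test without the block. With it, Irf7 was called in BMI1-KO (edgeR adjusted p = 1.91e-07) and in wt cells (edgeR adjusted p = 1.45e-06), Irf9 in wt cells (edgeR adjusted p = 0.00765, against 0.114 in BMI1-KO) and Isg15 in BMI1-KO cells (edgeR adjusted p = 0.025, against 0.0773 in wt). Ifit1 rose by 2.74 in BMI1-KO and by 2.27 in wt cells on the log2 scale (edgeR adjusted p = 0.00145 in BMI1-KO and 0.0146 in wt cells). Between genotypes edgeR called 0 of the 58, where it called 0.0493% of all genes higher in MM-MΦs and 0.0352% in MΦs. Of the 58, 14 had an unadjusted p under 0.05 in MM-MΦs (712 of all 14197 genes) and 8 in MΦs (819 of all 14197 genes). Values above 0 were found for 48 of the 58 in MM-MΦs (47.5% of all genes) and for 40 in MΦs (48.3% of all genes), with medians of 0.36 in MM-MΦs and 0.12 in MΦs.

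For interferon ligands and receptors no change was called, with or without the block. Ifnb1, Ifna2, Ifna4, Ifnl2, Ifnl3 and Ifng had 0 counts in all 12 libraries. This allows up to 3 counts or 0.269 to 0.311 CPM per library, without TMM scaling. Of 14 listed genes, which are ligands, receptor chains, kinases and the signal suppressor Socs1, 7 could be tested and 0 were called in any comparison by edgeR, with log2 fold changes of −0.05 to 0.18 with co-culture in BMI1-KO and −0.12 to 0.12 in wt cells. Ifnar1, the type I receptor chain, had 3537 to 4354 counts in BMI1-KO MM-MΦs against 3648 to 4371 in BMI1-KO MΦs, and 3014 to 3940 in wt MM-MΦs against 3085 to 3458 in wt MΦs.

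The 9 other ADP-ribosyltransferases on the list, all tested, gave 0 calls in every comparison by edgeR, and 0 with co-culture under the block. Their median log2 fold change with co-culture was −0.02 in BMI1-KO and 0.03 in wt cells. Zc3hav1, the antiviral zinc-finger protein also known as Parp13, had 0.18 in BMI1-KO and 0.23 in wt cells, Parp3 had 0.19 in BMI1-KO and 0.44 in wt cells, and Tiparp had −0.02 in BMI1-KO and 0.24 in wt cells. Parp4 (0.03 in BMI1-KO, −0.01 in wt) and the tankyrase Tnks (−0.08 in BMI1-KO, 0.02 in wt) lay near 0. Of 12 readers, erasers and DNA repair partners of ADP-ribose, 11 were tested with 0 calls with or without the block, among them Parg, which degrades the chains (−0.10 in BMI1-KO, 0.12 in wt), Hpf1, the cofactor of Parp1 and Parp2 (−0.43 in BMI1-KO, −0.04 in wt), and the repair scaffold Xrcc1 (−0.09 in BMI1-KO, −0.06 in wt).

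Of the 8 genes around Zbp1 edgeR called 0 without the block. Under the block within genotype it called 1, Adar, higher with co-culture in BMI1-KO (1.85% of all genes) and in wt cells (1.06% of all genes). Ripk3, the kinase that Zbp1 engages, had a log2 fold change with co-culture of −0.02 in both genotypes, and Mlkl, the effector of necroptosis, had 0.50 in BMI1-KO (SE 0.35) and 0.70 in wt cells (SE 0.34). Adar, the RNA-editing enzyme that restrains Zbp1 in mice, had 0.55 in BMI1-KO (edgeR adjusted p = 0.154) and 0.58 in wt cells (edgeR adjusted p = 0.172) without the block. With the block its adjusted p was 0.000258 in BMI1-KO and 0.000228 in wt cells by edgeR. Adar had 1495, 1853 and 1690 counts in BMI1-KO MM-MΦs against 1120, 1295 and 1085 in BMI1-KO MΦs, and 1573, 1408 and 1731 counts in wt MM-MΦs against 1000, 985 and 1201 in wt MΦs.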

How the data were processed

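Raw counts per gene and, per library, FPKM values with exon sizes were deposited by the authors. The submitters' processing notes name bcl2fastq 2.17.1.14, cutadapt 1.9.1, HISAT2 2.0.1, HTSeq 0.6.1 and DESeq2 (no version given) on GRCm38 (mm10). For the strand setting and the annotation release, no source used here gives a value. The deposited FPKM values of the 9 genes equalled counts divided by exon length and library size within 0.01 in 108 of 108 cases.

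The count model was fitted in edgeR 4.0.16 in R 4.3.3 (limma 3.58.1, DESeq2 1.42.0): filterByExpr (minimum count 10, total 15, large group size 10, proportion 0.7), TMM scaling, 1 quasi-likelihood model with a mean for each of 4 groups (common dispersion 0.102), and Benjamini and Hochberg adjustment over 14197 genes with a threshold of 0.05. The log2 CPM of the correlations and the heat map used a prior count of 2, and other CPM values had none. Library totals of 9662279 to 11142768 counts set the counting error. Scripts were tested on simulated data.

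Replicate numbers come from the sample titles. Deviations from group means of same-numbered MΦ and MM-MΦ libraries correlated across genes at 0.64, 0.18 and 0.60 in BMI1-KO and 0.55, 0.36 and 0.73 in wt cells (replicates 1, 2 and 3). Each exceeded 0.1, and the number was therefore used as a block within genotype in an alternative model. The main model had no block. Between genotypes the same numbers gave 0.50, 0.03 and 0.51 in MM-MΦs and 0.48, −0.03 and 0.50 in MΦs, and what the number stands for was not tested. Alternatives were DESeq2, limma-voom, other scalings and filters, blocks, fits to 6 libraries, and libraries left out.

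Genes and lists were chosen with earlier results of these data known. All 9 genes are named, with pathway genes named by role and the 10 genes most like the mean of the 7 induced genes. A pathway gene covered by this rule is not reported here. Ighg2b, Igkc, Mzb1, Tnfrsf17, Sdc1, Pou2af1, Irf4, Prdm1, Xbp1, Socs1 and Ngp were named after their values were seen. Gene positions are those of the deposited files, and exon overlaps were computed from GENCODE M21 (GRCm38).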

Additional observations from a re-analysis of the deposited data

How the results depend on the processing

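With co-culture, edgeR called 3 of the 9 genes in BMI1-KO cells and 1 in wt cells. In BMI1-KO cells it became 5 with DESeq2, 5 with the replicate block over all 4 groups and 6 with the block within genotype. It was 0 with only the 6 libraries compared, and 0 to 3 with 1 library left out. Of all genes tested, 27 were called higher in the main model, 90 with DESeq2, and 108 and 263 with these blocks. With only the 6 libraries compared 0 of all genes were called, and with 1 library left out 4 to 24. In wt cells DESeq2 called 5 of the 9 genes, the replicate block over all 4 groups 4 and the block within genotype 5. The count of the 9 was 0 with limma-voom, upper-quartile scaling, library totals only, only the 6 libraries compared, or 1 library left out. Of all genes tested, 13 were called higher in the main model, 58 with DESeq2, and 63 and 150 with these blocks. Limma-voom called 2 of all genes, upper-quartile scaling 9, library totals only 6 and only the 6 libraries compared 6. With 1 library left out 0 to 3 of all genes were called. With replicate number 1, 2 or 3 left out of all 4 groups, 0 of the 9 genes were called in either genotype. Over all genes 0 or 1 was called there. This alternative was chosen after seeing the data and left groups of 2 libraries. The cause of these changes was not tested. For the 9 genes the count was 0 between genotypes and for the interaction under every alternative run. The 7 induced genes kept positive fold changes with co-culture under every one. The block over all 4 groups changed no call of the 9 genes between genotypes. Over all genes tested, edgeR calls between genotypes went from 9 to 181 in MM-MΦs and from 7 to 206 in MΦs. The lowest edgeR adjusted p of the 7 induced genes went from 0.752 to 0.162 in MM-MΦs and from 0.931 to 0.334 in MΦs. Same-numbered libraries deviated together less between genotypes than within them (correlations 0.50, 0.03 and 0.51 in MM-MΦs and 0.48, −0.03 and 0.50 in MΦs).

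Small log2 fold changes turned sign. Parp2 had 0.012 in BMI1-KO against wt MM-MΦs with upper-quartile scaling, and −0.0092 in wt co-culture with upper-quartile scaling and −0.024 with library totals only. With 1 library left out, BMI1-KO against wt MM-MΦs ran from −0.035 to 0.17 for Parp14, −0.32 to 0.028 for Parp1 and −0.21 to 0.086 for Parp2. BMI1-KO against wt MΦs ran from −0.086 to 0.14 for Parp10, −0.11 to 0.087 for Parp14, −0.044 to 0.47 for Zbp1 and −0.38 to 0.093 for Parp1. Wt co-culture ran from −0.20 to 0.33 for Parp1 and −0.092 to 0.10 for Parp2, and BMI1-KO co-culture from −0.076 to 0.13 for Parp1. The interaction ran from −0.054 to 0.24 for Parp9, −0.091 to 0.17 for Parp12, −0.044 to 0.21 for Parp14, −0.036 to 0.50 for Zbp1 and −0.30 to 0.23 for Parp1. The stricter motif with 1 more A at its end left 1 promoter window with a match, as before.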
